A study of Homo sapiens with 3 samples.

Results

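The broad binding regions of Idax were the autosomal peaks of the wild-type Myc-Idax list that spanned 2500 bp or more. They were chosen by width alone (end minus start), a value that the peak caller set from the same reads as the score. They numbered 527 of 16528 autosomal peaks and of 17089 peaks in the list, so that 3.19% of the autosomal peaks passed the width threshold (95% exact Clopper-Pearson interval 2.93 to 3.47%, which covers counting error only). Chromatin immunoprecipitation and sequencing had been done on 3 stable lines of HEK293T, a human embryonic kidney line with the SV40 large T antigen. One line carried wild-type Myc-Idax, another carried the DNA-binding mutant Myc-IdaxDBM, and the reference line carried an empty vector. All lines were transfected, all were precipitated with the same anti-c-Myc agarose gel, and the promoter that drives the transgenes and the number of clones behind each line are not given in the sources used here. Peaks of both constructs had been called over the empty-vector cells. The design text gives 2 replicates per condition, yet each construct had 1 list, so no value below has a replicate error and no difference below has a test.

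Idax (CXXC4) is a zinc finger protein known for a CXXC domain, which binds DNA that contains unmethylated CpG, and for an inhibitory part in Wnt signalling through Dishevelled. In mammalian genomes unmethylated CpG is concentrated in CpG islands, most of which lie at promoters, and long islands are known from genes of embryonic development. The HOX genes are such genes. They encode homeodomain transcription factors that set position along the body axis, and they stand in 4 clusters in which the order of the genes follows the order of their expression along the body.

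A pair of HOXA promoters shows how far CpG content can differ. They have the most and the fewest CpG among the 9 of 11 HOXA genes matched in the RefSeq promoter table. Whether their CpG is methylated in these cells was not determined. CpG (the letters CG, which read the same on both strands) is in capitals, and each sequence is the 250 bases before the gene's start, 5′ to 3′. HOXA13 acts at the far end of the limbs and body axis and HOXA2 in the hindbrain and the second branchial arch. HOXA13 lies on the minus strand at chr7:27200092-27200341 and HOXA2 on the minus strand at chr7:27102684-27102933, both in GRCh38.p14. These positions are of another build than the peaks and cannot be set beside them, so whether either sequence lies in a peak was not determined.
HOXA13: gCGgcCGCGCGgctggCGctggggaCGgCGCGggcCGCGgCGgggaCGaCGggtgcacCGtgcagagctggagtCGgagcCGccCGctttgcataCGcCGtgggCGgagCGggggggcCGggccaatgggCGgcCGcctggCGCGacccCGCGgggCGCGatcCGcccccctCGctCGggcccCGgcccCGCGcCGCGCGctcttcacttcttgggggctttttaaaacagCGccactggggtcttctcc
HOXA2: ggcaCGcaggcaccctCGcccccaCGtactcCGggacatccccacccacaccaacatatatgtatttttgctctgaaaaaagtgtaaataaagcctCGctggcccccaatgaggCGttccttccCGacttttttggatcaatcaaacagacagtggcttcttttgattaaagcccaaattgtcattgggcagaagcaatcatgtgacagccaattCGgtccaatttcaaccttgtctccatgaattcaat
The HOXA13 sequence held 40 CpG and the HOXA2 sequence 8. The 9 HOXA promoters had a median of 20, beside a median of 17 over 15841 protein-coding promoters of the same length, of which 96.9% held at least 1 CpG. Sequence of the peaks themselves was not analysed here.

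Width had a median of 2906 bp (quartiles at 2666 and 3382 bp) in the broad class, and of 1100 bp (819 and 1460 bp) in the other 16001 autosomal peaks. The broad peaks covered 1.67 Mb, which was 8.13% of the sequence under autosomal peaks. Widths ran from 2501 to 8894 bp and thinned out quickly. Of the members, 299 were narrower than 3000 bp, 116 lay from 3000 to below 3500 bp, 48 from 3500 to below 4000 bp, 50 from 4000 to below 5000 bp, and 14 reached 5000 bp or more. The threshold fell in a continuous run of widths. The 5 members just inside it were 2501 to 2506 bp wide with scores from 569 to 773, and the 5 peaks just outside it were 2496 to 2499 bp wide with scores from 165 to 1089.

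The score of a peak is the authors' deposited value from the peak caller. It comes from the same reads that set the width and thus the membership, so the scores are a description. Broad peaks had a median score of 729 (quartiles 511 and 1019), and other autosomal peaks had a median of 217 (107 and 390). Of the broad peaks 514 (97.5%) scored above the autosomal median of 225, and 141 (26.8%) scored 1000 or more. Among the other peaks, 272 (1.7%) scored 1000 or more. The 100 highest autosomal scores included 53 broad peaks, and the 1000 highest included 248. The rank correlation of width with score (Spearman's rho) was 0.23 across the 527 broad peaks and 0.75 across the 16001 others. Both coefficients are across peaks of 1 list, which share their reads and are not replicates, and the broad class covers a narrower range of log width.

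**Figure D1:**
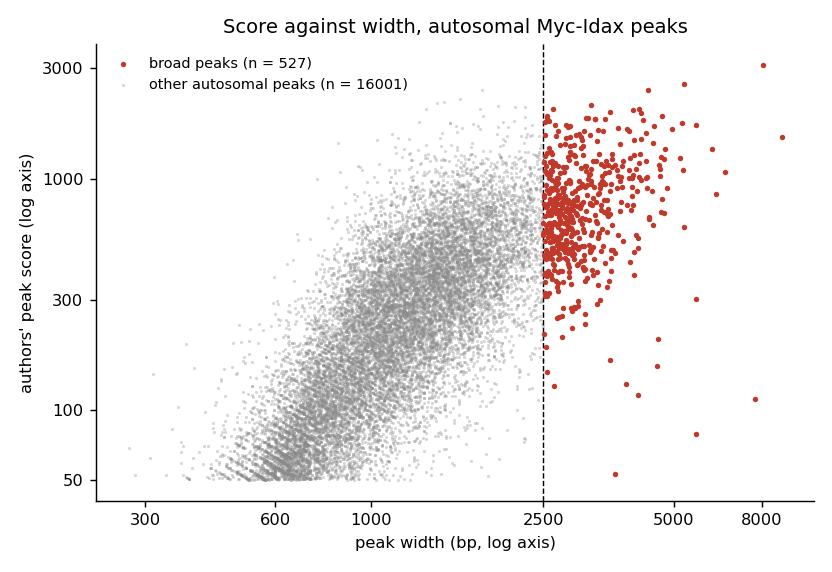
Score (vertical, log axis) against width in bp (horizontal, log axis) of each autosomal Myc-Idax peak, with the 527 broad peaks in red, the 16001 others in grey and the threshold of 2500 bp as a dashed line. Most broad peaks lie between scores of 300 and 2000, and a few wide peaks lie far below the rest, such as the 7718 bp peak with a score of 112.

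Divided by width, the score of broad peaks had a median of 240 per kb (quartiles 176 and 317), beside 187 (122 and 289) for the other autosomal peaks. Over the width classes, the median was 119 per kb below 600 bp, 139 from 600 bp, 224 from 1000 bp and 246 from 1500 bp. It stayed near that level at 246 from 2000 bp, 243 from 2500 bp, 242 from 3000 bp, 236 from 3500 bp and 235 from 4000 bp. In the 14 peaks of 5000 bp or more it was 188 (quartiles 122 and 286). None of the 100 highest scores per kb in the autosomal list belonged to a broad peak. That was 0% of the broad peaks (interval 0 to 0.698%), which takes in the 0.625% of the others. The 1000 highest included 39 (7.4% of the broad peaks, interval 5.32 to 9.98%) and 961 of the others (6.01%). A score per kb divides by the width that chose the members, so these values too are a description.

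**Figure D2:**
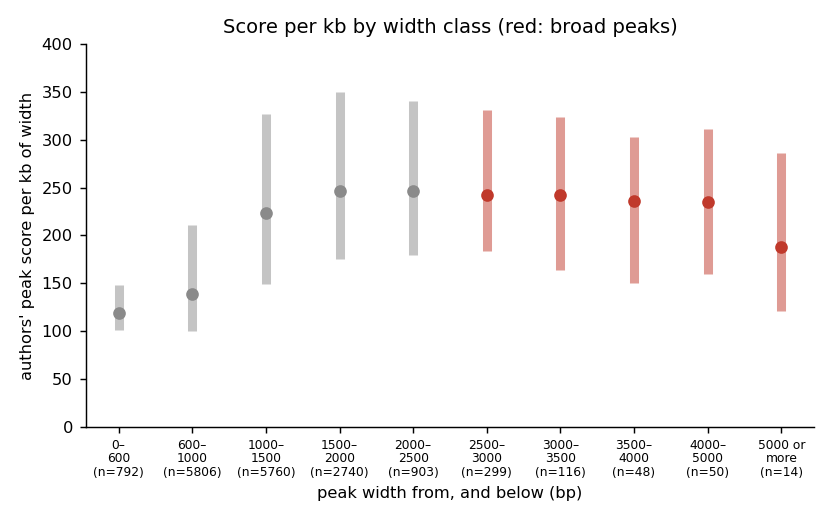
Score per kb of peak width (vertical) by width class (horizontal, number of peaks below each class), with the median as a point and the quartiles as a bar, broad classes in red. The median climbs to 246 at 1500 bp and is between 235 and 243 in the 4 broad classes below 5000 bp.

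The widest member lay on chromosome 7 at 5461030 to 5469923, spanned 8894 bp and scored 1513. It began 8 bp after another member of 3046 bp. The next widest was the autosomal peak of highest score, on chromosome 10 at 77158243 to 77166306, with 8064 bp and a score of 3100. A member of 2613 bp with a score of 501 followed it after 532 bp. On chromosome 6 at 1604075 to 1610632 a peak of 6558 bp scored 1069, and the next peak began 2 bp after its end. Chromosome 15 held a peak of 6281 bp at 75742442 to 75748722 (score 862) whose nearest neighbour was 81013 bp away. Some of the widest regions thus stood alone and others adjoined a further peak. The chromosome 6 peak at 108878627 to 108884268, 5642 bp wide with a score of 1710, stood 121622 bp from its nearest neighbour. The 10 widest also included peaks on chromosome 16 at 29818414 to 29824044 (5631 bp, score 303) and at 85643964 to 85649247 (5284 bp, score 615).

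By score, the members that followed the chromosome 10 peak were a 5283 bp peak on chromosome 17 at 79315563 to 79320845 (score 2552) and one of 4358 bp on chromosome 9, from 82184754 to 82189111 (score 2407). The chromosome 9 peak was remote, with its nearest neighbour 311279 bp away. Chromosome 7 at 39988473 to 39991689 followed with 2082 over 3217 bp. Chromosome 19 held 2 of the 10 members of highest score, at 46270402 to 46274550 (1995 over 4149 bp) and at 39339526 to 39343560 (1985 over 4035 bp). The member of highest score per kb, on chromosome 1 at 16160485 to 16163118, reached 756 per kb with a score of 1992 over 2634 bp. It had neighbours 179 bp before it and 101 bp after it. The next in score per kb were on chromosome 17 at 74732191 to 74734743 (731 per kb) and on chromosome 10 at 21784363 to 21786908 (716 per kb), 99092988 to 99095504 (696 per kb) and 131907827 to 131910402 (685 per kb).

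A few members were wide with little score for their width. The score per kb was below 50 in 9 members (1.71%, interval 0.784 to 3.22%), in 54 of the other autosomal peaks (0.337%) and in 0.381% of all autosomal peaks. No autosomal peak scored below 50, so a peak under 1000 bp could not fall below 50 per kb. The shares at that limit are thus partly set by width. At a limit of 100 per kb the order was the other way round, with 30 members (5.69%, 3.87 to 8.03%) and 2322 others (14.5%, 14 to 15.1%) below it. The lowest was on chromosome 3 at 75689041 to 75694682, where a peak of 5642 bp had a score of 78.7, or 13.9 per kb. A peak of 7718 bp on chromosome 4 at 50431 to 58148, which is the first peak listed on that chromosome, scored 112, or 14.5 per kb. Chromosome 1 held 4 of the 9, 2 of them next to each other. These were at 145038071 to 145042664 (score 202 over 4594 bp) and at 145089562 to 145093214 (53.1 over 3653 bp), 46897 bp apart. The member before them, at 144929427 to 144933233, scored 1136 over 3807 bp. Broad peaks of that region thus differed widely in score per kb. The other 2 on chromosome 1 were at 16969145 to 16972708 (score 165) and 149296842 to 149299481 (score 128), and 1 was on chromosome 10 at 127581999 to 127586567 (score 155).

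The remaining 2 of the 9 lay on chromosome 7 and had like distances to their neighbours. The first, at 102154681 to 102158818, was 4138 bp wide with a score of 116, and it stood 1748 bp after the peak before it and 53880 bp ahead of the next. The second, at 102253874 to 102257764, was 3891 bp wide with a score of 129, and it stood 1751 bp after the peak before it and 54143 bp ahead of the next. The distances on either side thus differed by 3 bp and 263 bp between the pair. The flanking peaks themselves were less alike. The peak before was 850 bp wide (score 67.1) at the first and 1737 bp (score 82.3) at the second. The peak after was 640 bp wide (score 169.6) at the first and 495 bp (score 97.2) at the second. Whether these stretches share sequence was not determined.

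The broad share of a chromosome's peaks ran from 0.69 to 5.37% over the 22 autosomes. Chromosome 1 held 79 members, or 15% of them, and chromosomes 6 and 17 held 54 each. As a share of the chromosome's own peaks, chromosome 21 came first with 5.37% (11 of 205, interval 2.71 to 9.4%). It was followed by chromosome 6 with 5.28% (3.99 to 6.83%), chromosome 17 with 4.99% (3.77 to 6.46%), chromosome 1 with 4.82% (3.83 to 5.97%) and chromosome 10 with 4.34% (3.08 to 5.94%). At the other end stood chromosome 20 with 0.69% (3 of 435, interval 0.142 to 2%) and chromosome 19 with 1.35% (17 of 1259, interval 0.789 to 2.15%). Beside the autosomal share of 3.19%, the interval lay above it on 3 chromosomes (1, 6 and 17), below it on 2 (19 and 20) and across it on 17. Neighbours in this order mostly had overlapping intervals. The number of chromosome copies in HEK293T was not taken into account.

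**Figure D3:**
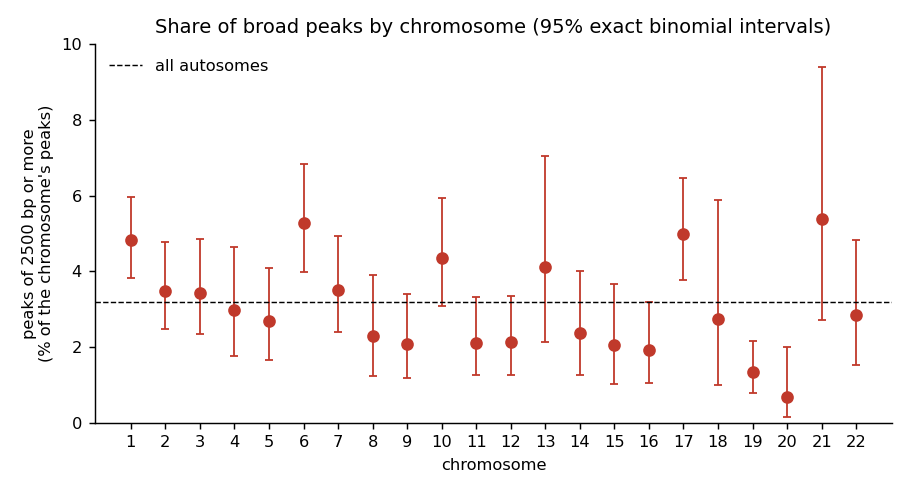
Broad peaks as a percentage of each autosome's peaks (vertical) by chromosome (horizontal), with exact binomial 95% intervals and the autosomal share of 3.19% as a dashed line. Chromosomes 19 and 20 lie below the line with their whole interval, and chromosomes 1, 6 and 17 above it.

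Chromosome 19, the chromosome with the second most autosomal peaks, therefore gave 3.23% of the members and 7.62% of all autosomal peaks. Its 17 members were wide, with a median of 3241 bp, and had a median score of 802. Per span of the list, chromosome 17 had the most members, 0.666 per Mb, then chromosome 22 with 0.371 and chromosome 1 with 0.318. Chromosome 20 had 0.0478 per Mb. The 11 members on chromosome 21 had a median score of 1252, above the medians of 429 to 996 on the other 21 autosomes. Set against the protein-coding genes that the RefSeq table lists, chromosome 6 had 5.15 members per 100 genes, chromosome 10 had 5.04 and chromosome 20 had 0.559. Members were counted per chromosome and not assigned to genes.

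The 10 windows of 1 Mb with most peaks, from 43 to 69 each, held 9 broad peaks among 501 (1.8%, interval 0.825 to 3.38%, which takes in the autosomal share of 3.19%). In 5 of them no peak was broad, and the most was 3 of 49, on chromosome 17 from 7000001 to 8000000. The window with most peaks, on chromosome 19 from 1000001 to 2000000, had 1 broad peak among 69. The window with most broad peaks, on chromosome 7 from 27000001 to 28000000, holds the HOXA cluster and had 9 among 27 peaks. The next were chromosome 1 from 149000001 to 150000000 with 6 of 20, and chromosome 17 from 77000001 to 78000000 with 5 of 20. Windows were ranked after their values were seen.

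Broad peaks and other peaks had medians of like size for the distance to the next peak. It was 23724 bp (quartiles 5192 and 76770 bp; 95% interval of the median 19336 to 29830 bp) for broad peaks and 22911 bp (5430 and 64500 bp; 22144 to 23755 bp) for the others. A next peak lay within 10 kb of 190 broad peaks (36.1%, interval 31.9 to 40.3%) and of 5400 others (33.7%), beside 33.8% of all autosomal peaks. Within 1 kb the numbers were 80 (15.2%, interval 12.2 to 18.5%) and 2356 (14.7%), beside 14.7% of all. At long range, 110 broad peaks (20.9%, interval 17.5 to 24.6%) and 2506 others (15.7%, 15.1 to 16.2%) had no peak within 100 kb. Beyond 500 kb the shares were 7 broad peaks (1.33%, interval 0.536 to 2.72%) and 225 others (1.41%, 1.23 to 1.6%), so the larger broad share at 100 kb was not seen there. Distances were counted as the bases between the edges of peaks.

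**Figure D4:**
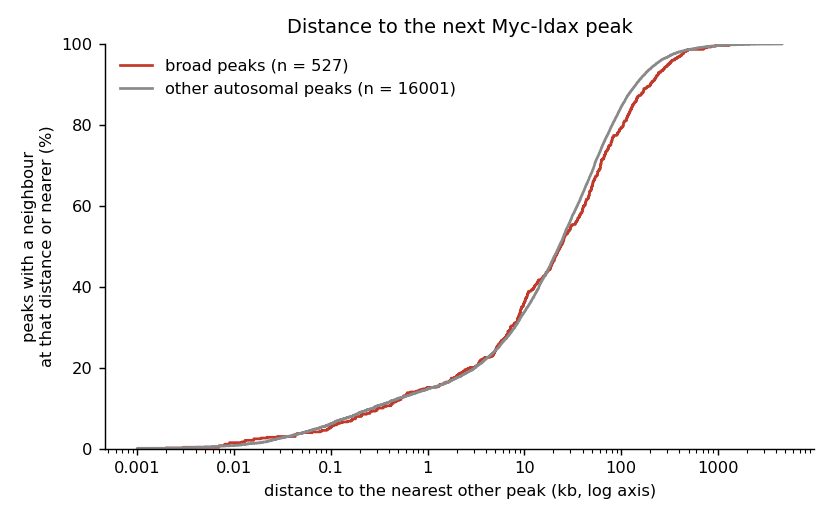
Cumulative percentage of peaks (vertical) whose nearest other peak is at the given distance in kb or nearer (horizontal, log axis), for 527 broad peaks in red and 16001 other autosomal peaks in grey. The curves lie close together below 10 kb, and at long range 20.9% of broad and 15.7% of other peaks had no neighbour within 100 kb.

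The greatest distance to another peak was 1319538 bp among broad peaks and 4632158 bp among the others. The most remote member lay on chromosome 13 at 93878655 to 93881265 (2611 bp, score 611). A peak on chromosome 18 at 25755118 to 25758710 (3593 bp, score 490) was 1311456 bp from the next. Of the 2 on chromosome 3, that at 96531783 to 96534360 scored 873 and that at 143689506 to 143692648 scored 1819, with 948520 and 849516 bp to the nearest peak. The fifth was on chromosome 1 at 82265600 to 82269566 (score 1228), at 766256 bp. These 5 scores, from 490 to 1819, ran from below the lower quartile of the broad class to above its upper quartile.

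Broad peaks also lay near each other. Another broad peak lay within 100 kb of 92 members (17.5%, interval 14.3 to 21%). For the other autosomal peaks, 1318 had a broad peak within that distance (8.24%, 7.82 to 8.67%), and the value over all autosomal peaks was 8.53%. The nearest peak was itself broad for 48 members (9.11%) and for 472 of the others (2.95%). Pieces of a longer region listed separately count here as neighbours. Once peaks under 1 kb apart were joined, 965 regions were broad, so more regions could serve as a broad neighbour. The broad share was then 181 of 965 (18.8%, interval 16.3 to 21.4%), beside 17.5% before joining. The share of the others was 2177 of 14276 (15.2%, 14.7 to 15.8%), beside 8.24% before joining. The classes thus lay closer together after joining. Whether separately listed pieces raise the broad share was not tested. Chained at 100 kb, the 92 formed 38 groups on 14 chromosomes, of which 31 were pairs, and 435 members stood alone. The closest pairs were 7 bp apart on chromosome 9, where a member of 3904 bp at 98270690 to 98274593 (score 773) followed one of 2683 bp (score 250), and 8 bp apart at the widest member on chromosome 7. On chromosome 15, a peak at 70390705 to 70393845 (score 1073) began 16 bp after a member with a score of 269, and on chromosome 2 one at 60780120 to 60782870 (score 572) began 181 bp after a member with a score of 704.

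The second group by number held 5 members in 49.3 kb of chromosome 17, from 77770019 to 77819335. It opened with a peak of 6126 bp and a score of 1345. The 4 others had scores of 400, 407, 470 and 499 over 2837 to 3575 bp, and the last 3 of them were 446 and 442 bp apart. The third group held 4 members in 58.1 kb of chromosome 1, from 149802759 to 149860813. Their scores were 426, 1679, 1798 and 1278 and their widths 3001, 4511, 4244 and 4172 bp, so that 3 of the 4 lay above the upper quartile of the broad class on both measures. A group of 3 filled more of its span. On chromosome 2 from 172948857 to 172968213, members of 3131, 3517 and 3757 bp, with scores of 721, 807 and 1407, and 1 narrower peak covered 59.3% of 19.4 kb. The other groups of 3 were on chromosomes 10, 17 and 19.

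The first group by number was in the HOXA cluster, with 9 members from 27180547 to 27240470 on chromosome 7. The 4 HOX windows held 73 autosomal peaks (0.442% of the list), of which 13 were broad (17.8%, interval 9.84 to 28.5%). Outside the windows 514 of 16455 were broad (3.12%, 2.86 to 3.4%). The windows therefore held 2.47% of the members, and 10 more of their peaks were from 2000 to 2499 bp wide. The clusters differed in how many members they held. HOXA had 9 of 23 peaks (39.1%, interval 19.7 to 61.5%), HOXB 2 of 23 (8.7%, 1.07 to 28%), HOXC 1 of 15 (6.67%, 0.169 to 31.9%) and HOXD 1 of 12 (8.33%, 0.211 to 38.5%). These windows were named with earlier results of the data known, and the counts are a description.

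In the HOXA window (chromosome 7, 27130000 to 27250000), peaks covered 45% of the sequence and had a median width of 2005 bp. The first member, at 27180547 to 27185727, was the widest peak in any of the 4 windows with 5181 bp and scored 1221. After 425 bp came one at 27186153 to 27189090 with the lowest score of the 13, 279, and after 537 bp one at 27189628 to 27192922 with 696. The next was at 27199378 to 27202061, 2684 bp wide, with a score of 517. Then 3 members lay 564 and 892 bp apart, at 27203305 to 27207323 (score 1039), 27207888 to 27210411 (score 382) and 27211304 to 27216005 (score 1854). The last of these, 4702 bp wide, had the highest score of any peak in the windows and ranked 21 among all autosomal peaks. The final members were at 27221960 to 27226061 (4102 bp, score 572) and 27237748 to 27240470 (2723 bp, score 777). Over the 59.9 kb from the first to the last member, 12 peaks covered 61.5% of the sequence.

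All 9 HOXA members lay in the stretch from 50.5 to 110.5 kb into the window, and the 10 peaks before it were under 2500 bp. The widest of these, at 27169078 to 27171490, was 2413 bp wide with a score of 1000.44, just outside the threshold. Which genes lie at the members was not determined.

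The HOXB window (chromosome 17, 46604000 to 46807000) had as many peaks as HOXA over a longer stretch, and they covered 19.1% of it. Its 2 members were neighbours, at 46695755 to 46699369 (3615 bp, score 491) and 46701797 to 46704448 (2652 bp, score 651), and the second had the highest score in the window. The HOXC window (chromosome 12, 54330000 to 54452000) was covered to 18.2% and had 1 member, at 54410305 to 54412892 (2588 bp, score 465). Its score was close to that of 2 narrower peaks there, of which the higher had 473. The HOXD window (chromosome 2, 176955000 to 177057000) was covered to 15% and had 1 member, at 176993309 to 176995864 (2556 bp). Its score of 1289 was the highest in the window and ranked 129 among all autosomal peaks. The median score in the window was 203.

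**Figure D5:**
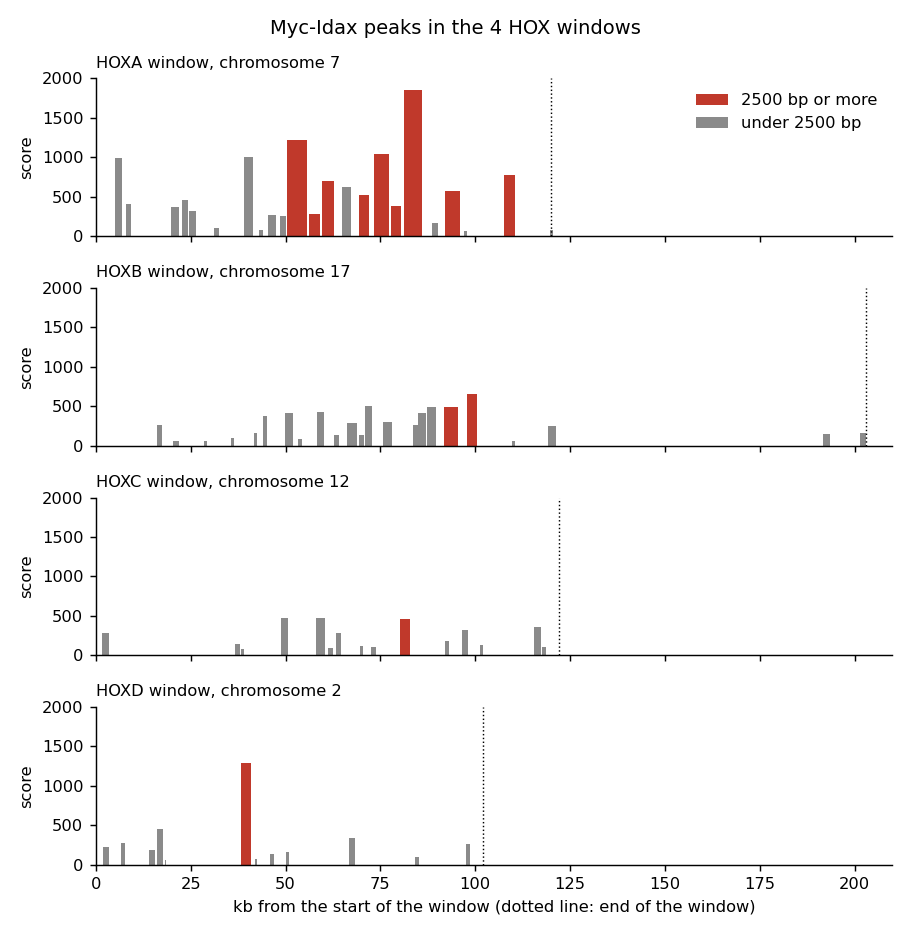
Peaks in the HOXA, HOXB, HOXC and HOXD windows, drawn to scale along the window (horizontal, kb from its start, dotted line at its end) with the authors' score as height (vertical). Peaks of 2500 bp or more are red and others grey. The 9 broad HOXA peaks stand between 50.5 and 110.5 kb with scores from 279 to 1854, and the other windows have 2, 1 and 1.

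Within the broad class, the 13 HOX members had a median score of 651 and a median score per kb of 211 (range 94.9 to 504), beside 730 and 241 for the 514 members elsewhere. They were closely flanked, with a median of 966 bp to the next peak and at most 9360 bp, beside a median of 25124 bp for broad peaks elsewhere. Some narrower peaks of the same windows also had a neighbour within 1 kb and others did not, so close flanking is not particular to the broad ones. HOX members also made up most of the broad peaks with many neighbours. Among autosomal peaks with 10 or more others within 50 kb, 19 of 222 were broad (8.56%, interval 5.23 to 13%), and 13 of these 19 were in HOX windows. Outside the windows the count was 6 of 164 (3.66%, 1.35 to 7.79%). The 222 thus also included narrower peaks of the windows, so many neighbours are not particular to the broad HOX peaks. Of the peaks with no other within 50 kb, 185 of 5248 were broad (3.53%, 3.04 to 4.06%). On chromosome 7 the broad share was 3.51% with the HOXA window and 2.56% (1.61 to 3.84%) without it.

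Of the 38 peaks of the mutant, 1 fell in a broad peak. The Myc-IdaxDBM peak, on chromosome 1 at 16176336 to 16176533 (198 bp, score 51.2), lay inside a Myc-Idax member at 16173518 to 16176986 (3469 bp, score 950). The share of members that a mutant peak touched was thus 0.19% (interval 0.0048 to 1.05%), beside 9 of 16001 other autosomal peaks (0.0562%, 0.0257 to 0.107%) and 0.0605% of all autosomal peaks. Scores of the lists depend on the depth of each library, which is unknown, and cannot be compared. A broad peak also offers more sequence for an overlap. None of the 13 HOX members was touched by a mutant peak. With 0.0605% of all autosomal peaks touched, none among so few was to be awaited, and it says nothing particular about these members.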

How the data were processed

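Peak lists of Myc-Idax and Myc-IdaxDBM, each called by the authors over empty-vector cells, were analysed. Per the submitters' processing notes Bowtie 0.12.7, MACS 1.4.1 and hg19 were used; the roles and settings, and how replicates were combined, are not given in the sources used here. Each list has 5 columns without header, and the last is the deposited score, whose scale is not stated. Depth is unknown. Width is end minus start; starts were converted to 1-based. Every position is on hg19 unless stated. Overlap means at least 1 bp.

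The members, windows and classes were chosen with earlier results of these data known. Named regions were the 10 widest, 10 of highest and 5 of lowest score, 5 of highest and lowest score per kb, 5 most remote, 5 closest pairs, HOX and mutant overlaps, 5 on each side of the threshold and the 3 first groups; others were picked after their values were seen. Shares have exact Clopper-Pearson 95% intervals and medians intervals from binomial order statistics. CpG content of peaks was not computed and peaks were not assigned to genes, since the gene and promoter tables are of GRCh38.p14 (20 of 39 HOX genes had a promoter there). Counts of wide peaks, groups, near neighbours, gaps, merged peaks and window hits were checked on a simulated list (6 of 6 quantities recovered). Scores, medians, intervals, chromosome shares and mutant overlaps were not checked in this way. Alternatives were other widths, merging, a score minimum, other distances and members left out. Calculations ran in Python 3.11.15 with SciPy 1.17.1, pandas 2.3.3 and numpy 2.4.6, and plots in matplotlib 3.10.9.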

Additional observations from a re-analysis of the deposited data

How the results depend on the processing

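No paired analysis was possible because each construct had a single list, and no replicate could be left out. Of 47 alternatives, 30 kept a value within its interval or a count within 1.5 times, and 17 did not. The 30 include all 13 that left out the HOX windows or the members with a score per kb under 50. Both of these settings were chosen after seeing the data. They kept 514 and 518 of the 527 members, so they could hardly move a value. All 17 alternatives that moved were planned ones. At 2000 bp or more there were 1430 peaks, with a median score of 604.5, a next peak within 10 kb for 30.6%, another such peak within 100 kb for 25.8%, 23 in the HOX windows and 2 touched by a mutant peak. At 3000 bp or more there were 228 peaks, with a median score of 881.9, a next peak within 10 kb for 43.4% and 6 in the HOX windows. Merging peaks less than 1 kb apart gave 965 broad peaks with a median score of 556.3, 174.5 per kb, and a next peak within 10 kb for 29.5%. A merged region takes the highest score of its pieces over the joined width, so its score per kb is lowered by construction. The share with another broad peak within 100 kb was then 18.8%, beside 15.2% of the other regions, and the HOX windows had 16. The widest merged region, on chromosome 7 at 27178555 to 27192922, spanned 14368 bp. With peaks of score 100 or more the share with a next peak within 10 kb was 29.7%, and measured between centres it was 30.4%. Another broad peak within 50 kb was found for 12.1%. Except for the merged share within 100 kb, the other peaks were not counted at these settings. The shares and HOX counts given here thus do not show whether the members differ from other peaks. The median score per kb was 244 at 2000 bp and 235 at 3000 bp. CpG content in the whole and the central part of peaks was not computed. Read depth is unknown and would change width, score and number of peaks.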
